A study of Homo sapiens with 6 samples.

Results

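The genes described here are the clustered histone genes whose symbols begin with HIST1H, HIST2H, HIST3H or HIST4H. Of 62729 genes in the authors' table, 106 names matched, and 17 copies on patch sequences were left out, which left 89 genes. They comprise 8 H1, 22 H2A, 26 H2B, 17 H3 and 16 H4 genes, of which 65 lie on chromosome 6, 21 on chromosome 1, 2 on chromosome 13 and 1 on chromosome 12. The names of 14 mark pseudogenes, and none of those had enough counts to be tested. The cells were A549, an established line from a human lung adenocarcinoma, reverse transfected with 10 nM siRNA in DharmaFECT1 and harvested 72 hours later. The treated group (siRPS19, n = 3) received a siGENOME SMARTpool against RPS19, the gene of a 40S ribosomal protein. The control group (siOTP, n = 3) received the non-targeting reagent from the ON-TARGETplus line. All 6 libraries therefore come from siRNA-treated cells of a single line, and product line differed together with the target.

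Histone cluster genes supply the bulk of the histones that package newly copied DNA, and their mRNAs peak in S phase. Most of these mRNAs carry no poly(A) tail: they end in a short stem-loop that is bound by the stem-loop binding protein SLBP and cut a few bases downstream with the help of U7 snRNA. Some of the genes also make longer, polyadenylated transcripts that read through the stem-loop to a downstream AATAAA signal, a form described in cells that differentiate or leave the cell cycle. H2A, H2B, H3 and H4 form the nucleosome core, and H1 binds the linker DNA between nucleosomes.

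The stem-loop was searched for in the transcripts annotated by GENCODE 29 (GRCh38), and the hairpin of 16 bases (a perfect stem of 6 and a loop of 4) shared by more cluster genes than any other, 18, was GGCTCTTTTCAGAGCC. With up to 3 mismatches on the transcript strand, it was found in 35 of the 89 genes. For the other 54, the annotated transcripts do not hold these letters, and many of those transcripts stop at the end of the coding region. Of 19669 protein-coding genes, 18 (0.092%) held the exact sequence, and 17 of those belong to the clusters. The sites below show the 6 versions found, with the stem-loop in capitals and 5 flanking bases on each side in lower case.
HIST2H3C: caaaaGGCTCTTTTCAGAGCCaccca
HIST1H2BD: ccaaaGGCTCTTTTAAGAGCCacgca
HIST1H2AG: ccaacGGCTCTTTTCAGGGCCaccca
HIST1H3E: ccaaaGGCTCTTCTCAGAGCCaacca
HIST1H4H: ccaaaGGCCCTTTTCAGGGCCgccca
HIST2H4B: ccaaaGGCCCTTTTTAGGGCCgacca
The version shown for HIST2H3C was found in 18 genes, 6 of them H2A, 9 H2B and 3 H3. The version of HIST1H2BD occurred in 5 H2B and H3 genes, that of HIST1H2AG in 3 H2A and H2B genes and that of HIST1H3E in that gene alone. All 8 H4 genes with a stem-loop had a version that was found in no other class, 5 that of HIST1H4H and 3 that of HIST2H4B.

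In 25 of the 35 genes the annotated transcript ran at least 100 bases past the stem-loop, and 18 of these 25 had AATAAA downstream of it. Examples are shown for an H2A gene, an H4 gene and 2 H3 genes that rose. Capitals mark the AATAAA nearest the transcript's end.
HIST2H3C: aaatggAATAAAacttcgttttgt
HIST1H4H: tgaaaaAATAAAtgtttaagcca
HIST1H2AC: tgaggtAATAAAaggtaatgcaaa
HIST1H3E: atgtaaAATAAAagattactgaac
The signal lay 18, 11, 23 and 16 bases from the annotated 3′ end, in that order.

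RPS19, the siRNA target, checked the labels. Its counts were 30731, 27124 and 30387 in the siOTP libraries and 1159, 830 and 1073 in the siRPS19 libraries, so the groups did not overlap. It fell by 5.14 ± 0.09 (SE) on the log2 scale (edgeR adjusted p = 5.06e-12).

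Libraries held 20814110 to 23889372 counts on genes. The share of reads that fell outside genes was 3.39% to 3.85% for siOTP libraries and 5.13% to 6.36% for siRPS19 libraries. The epithelial markers KRT8, KRT18, KRT7, KRT19, EPCAM and CDH1 were all detected, with a summed level of 5214 to 5639 CPM (TMM-normalised for library size) in siOTP and 3389 to 3780 in siRPS19. KRT8, KRT18, KRT7 and EPCAM fell, and KRT19 (6.85-fold) and CDH1 (1.63-fold) rose. Markers of alveolar type 2 cells were at or near 0, with NKX2-1 at 0 counts in every library and SFTPC at 0 to 5. Of the markers of other cell types, CD3E was at 0, PTPRC and CDH5 had 0 to 4 counts per library, and the summed level was 32.1 to 39.8 CPM in siOTP and 14.7 to 20.4 CPM in siRPS19. Nearly all of that sum was COL1A1, which fell 2.22-fold, while PDGFRB rose 3.79-fold from 6, 2 and 3 counts to 17, 19 and 16. The labels call the replicates biological and do not say that they were separate cultures.

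Histone cluster transcripts were more abundant after siRPS19. Summed over the 89 genes, the level was 85.1, 78.9 and 91.0 CPM in the siOTP libraries and 362, 368 and 407 CPM in the siRPS19 libraries. The groups did not overlap, and the mean went from 85.0 ± 6.07 to 379 ± 24.6 CPM (SD, n = 3 each), a ratio of 4.46. These transcripts remained a very small part of the libraries, at 0.0071% to 0.0083% of counts on genes in siOTP and 0.0394% to 0.0453% in siRPS19. Few genes carried most of it: HIST1H2BK, HIST1H2AC, HIST1H2BD and HIST1H1C held 54.5% of the clusters' counts in siOTP, and HIST1H2AC, HIST1H2BK, HIST1H1C and HIST2H4B held 63.3% in siRPS19.

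Enough counts for a test were present for 30 of the 89 genes. Of these 30, 26 rose, 1 fell (HIST2H2AC) and 3 did not pass (HIST3H2A, HIST1H4I and HIST1H4J), at an adjusted p of 0.05. Over all 17171 genes tested, 78.3% were called, 39.5% higher and 38.9% lower. The median log2 fold change was 1.70 over the 30 genes and 0.02 over all genes. The 3 libraries of each group did not overlap for 27 of the 30 genes, 26 with siRPS19 above and 1 with siRPS19 below, where 79.7% of all genes did not overlap, 40.1% above and 39.6% below. Scaling bears on the background: by upper-quartile factors 47.7% of all genes were called higher and 32.1% lower, and by library totals 53% and 27.6%, while the counts for the histone genes stayed at 26 and 1.

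The filter on low counts shaped this list. It corresponds to about 0.458 CPM in 3 libraries, and 9 of the 30 genes reached it in the 3 siRPS19 libraries but not in every siOTP library. Those were HIST1H2BC, HIST1H2BF, HIST2H2BF, HIST1H3E, HIST2H3A, HIST2H3C, HIST1H4E, HIST1H4J and HIST1H4K, of which 8 rose. HIST2H2AC passed through siOTP only, and HIST1H4I reached the level in 3 libraries of mixed group. Of the 20 genes at or above the level in all siOTP libraries, 18 rose, 1 fell and 1 did not pass. A filter on a mean of at least 1 CPM over the 6 libraries kept 23 genes, of which 22 rose and none fell. That mean also depends on siRPS19: it kept HIST2H3C, at 0.22 CPM in siOTP and 7.15 in siRPS19. It removed HIST2H2AC, at 1.05 and 0.18 CPM, so the absence of a fall there follows from the filter. With every gene that had a count entered, 77 histone genes were tested, of which 24 were higher and 6 lower, with a median of 0.76, against 21.6% higher and 21.6% lower among 33863 genes.

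**Figure D1:**
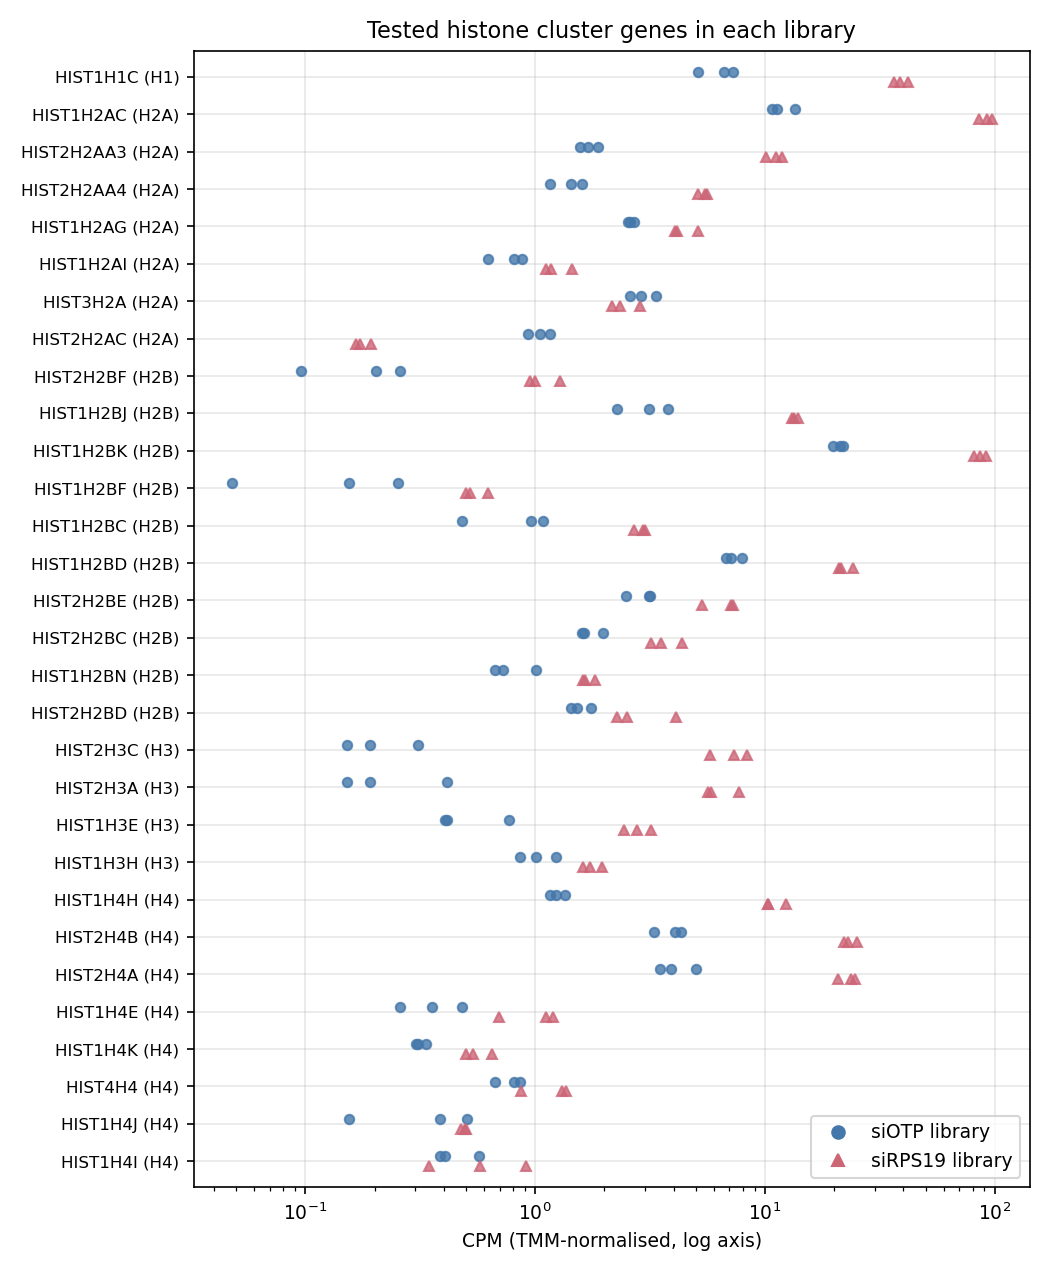
Each row is a tested histone cluster gene with its class in brackets, and the horizontal log axis gives CPM per library, with circles for the 3 siOTP libraries and triangles for the 3 siRPS19 libraries. The triangles lie to the right of the circles in 26 rows, to the left for HIST2H2AC, and overlap the circles for HIST3H2A, HIST1H4I and HIST1H4J.

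Among the H1 genes of the clusters, expression came almost entirely from HIST1H1C (ENSG00000187837, chromosome 6, 26055968 to 26056699, minus strand, hg19), which encodes H1.2. The gene had 138, 101 and 141 counts in siOTP and 944, 896 and 1015 in siRPS19. No siRPS19 library came near the siOTP range, and the rise was 6.16-fold (log2 2.62 ± 0.10 SE, adjusted p = 9.13e-15). The other 7 H1 genes were too low to test. Their summed level was 0.401 ± 0.107 CPM in siOTP and 0.36 ± 0.146 CPM in siRPS19 (SD, n = 3), within the spread of the libraries. The most counted of them, HIST1H1D and HIST1H1E, had 3, 2 and 2 against 3, 5 and 5 counts, and 1, 1 and 7 against 0, 2 and 3.

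Of 7 tested H2A genes, 5 rose, 1 fell and 1 did not pass, with a median log2 fold change of 0.77, or 1.40 with a mean of at least 1 CPM. HIST1H2AC (ENSG00000180573, chromosome 6, 26124373 to 26139344, plus strand, hg19) had 236, 212 and 263 counts in siOTP and 2211, 2145 and 2347 in siRPS19. It was the most counted histone gene after siRPS19 and rose 7.73-fold (log2 2.95 ± 0.07 SE, adjusted p = 1.35e-16). HIST2H2AA3 and HIST2H2AA4 are near-identical copies on chromosome 1, between which reads could be divided in any proportion. Summed, the copies had 69, 54 and 64 counts in siOTP and 437, 361 and 409 in siRPS19, a ratio of 5.29 between mean CPM. Counted separately, HIST2H2AA3 rose 6.44-fold and HIST2H2AA4 3.84-fold.

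HIST1H2AG and HIST1H2AI showed smaller rises. HIST1H2AG had 54, 53 and 49 counts in siOTP and 108, 94 and 123 in siRPS19, a 1.71-fold rise (adjusted p = 0.000118). For HIST1H2AI the counts were 13, 16 and 17 against 29, 27 and 35 (1.62-fold, adjusted p = 0.0192), and its call was lost without siOTP replicate 1 or without siRPS19 replicate 3 (adjusted p up to 0.108). It was also lost with DESeq2 (adjusted p = 0.0892) and with every gene with a count (0.0603). HIST3H2A, the H2A gene of the small HIST3 cluster on chromosome 1, had 60, 51 and 65 counts in siOTP and 56, 54 and 69 in siRPS19. Its groups overlapped, and its log2 fold change of -0.26 ± 0.18 (SE, adjusted p = 0.177) turned to 0.02 when libraries were scaled by their totals.

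HIST2H2AC (ENSG00000184260, chromosome 1, 149858525 to 149858961, plus strand, hg19) was the only tested histone cluster gene that fell. Its counts were 22, 23 and 18 in siOTP and 5, 4 and 4 in siRPS19. Every siRPS19 library lay below every siOTP library, and the gene fell by 2.53 ± 0.35 (SE) on the log2 scale (adjusted p = 1.22e-06). The call held at each of the 13 alternatives in which the gene was tested, with log2 fold changes from -2.62 to -2.25. A filter on a mean of at least 1 CPM removed it.

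All 10 tested H2B genes rose, from 1.88-fold (HIST2H2BD) to 5.74-fold (HIST2H2BF), with a median log2 fold change of 1.70. HIST1H2BK (ENSG00000197903, chromosome 6, 27106073 to 27114619, minus strand, hg19) had 444, 389 and 423 counts in siOTP and 2109, 1997 and 2207 in siRPS19, a 4.12-fold rise (log2 2.04 ± 0.06 SE, adjusted p = 1.11e-17). It was the most abundant histone gene per length in both groups, at 25.5 ± 1.34 and 105 ± 6.22 CPM per kb (SD, n = 3). HIST1H2BJ had 79, 45 and 61 counts in siOTP and 341, 308 and 336 in siRPS19, with no overlap and a 4.36-fold rise. HIST1H2BD had 141, 141 and 154 against 559, 486 and 582 counts, again without overlap, and rose 3.05-fold.

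The less abundant H2B genes moved the same way. HIST1H2BC went from 10, 19 and 21 counts to 77, 62 and 73 (3.45-fold), HIST2H2BE from 66, 62 and 48 to 185, 123 and 175 (2.24-fold), and HIST1H2BN from 14, 20 and 14 to 43, 42 and 39 (2.11-fold). HIST2H2BF and HIST1H2BF had at most 5 counts in any siOTP library, with 2, 4 and 5 against 26, 22 and 31 for HIST2H2BF (5.74-fold) and 1, 5 and 3 against 13, 12 and 15 for HIST1H2BF (3.54-fold). Both entered the test through siRPS19 only, and HIST1H2BC reached the filter level in every siRPS19 library but not in every siOTP library. HIST2H2BC and HIST2H2BD rose 2.13-fold and 1.88-fold. In all 10 genes the lowest siRPS19 library was above the highest siOTP library, as it was in 40.1% of all genes tested.

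The 4 tested H3 genes rose, and 3 of them (HIST2H3C, HIST2H3A and HIST1H3E) had passed the filter only through siRPS19, where they were high. The median log2 fold change was 3.51, and 0.57 with every gene with a count. HIST2H3C (ENSG00000203811, chromosome 1, 149811110 to 149812765, minus strand, hg19) had 4, 3 and 6 counts in siOTP and 191, 133 and 202 in siRPS19. HIST2H3A (ENSG00000203852, chromosome 1, 149824181 to 149825836, plus strand, hg19) had 4, 3 and 8 in siOTP and 151, 130 and 186 in siRPS19. Both were barely detected in siOTP and present in every siRPS19 library. HIST2H3C rose 32.3-fold (log2 5.01 ± 0.27 SE, adjusted p = 4.17e-13) and HIST2H3A 25.0-fold (log2 4.64 ± 0.27 SE, adjusted p = 1.98e-12).

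These copies are not independent observations. Every 50-base window of either HIST2H3 transcript, 50 bases being the read length, also occurs in another cluster gene. Summed, the copies had 8, 6 and 14 counts in siOTP and 342, 263 and 388 in siRPS19, a ratio of 28.8 between mean CPM that rests on few siOTP counts. HIST1H3E had 16, 8 and 8 counts in siOTP and 72, 56 and 77 in siRPS19 (5.20-fold, adjusted p = 3.8e-08). HIST1H3H, with 18, 20 and 24 against 42, 45 and 42 counts, rose 1.70-fold (adjusted p = 0.00413).

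Of 8 tested H4 genes, 6 rose and 2 did not pass, with a median log2 fold change of 1.13. The median was 2.59 with a mean of at least 1 CPM and 0.41 with every gene with a count. HIST1H4H (ENSG00000158406, chromosome 6, 26281283 to 26285762, minus strand, hg19) had 28, 23 and 24 counts in siOTP and 269, 239 and 299 in siRPS19, and rose 8.78-fold (log2 3.14 ± 0.15 SE, adjusted p = 6.94e-14). The near-identical HIST2H4A and HIST2H4B, summed, had 171, 134 and 176 counts in siOTP and 1217, 989 and 1207 in siRPS19, a ratio of 5.80 between mean CPM. HIST1H4E rose 2.73-fold, from 10, 7 and 5 counts to 29, 16 and 29, having entered the test through siRPS19. HIST1H4H and the HIST2H4 copies together gave most of the H4 counts of the siRPS19 libraries.

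Among the other H4 genes, HIST1H4K and HIST4H4 passed close to the threshold, and HIST1H4J and HIST1H4I did not pass. HIST1H4K had 7, 6 and 6 counts in siOTP and 13, 15 and 13 in siRPS19 (1.76-fold, adjusted p = 0.0444). HIST4H4, alone in its cluster on chromosome 12, had 18, 16 and 13 against 34, 20 and 33 (1.51-fold, adjusted p = 0.0482). With the replicate number as a block, neither passed (adjusted p = 0.0643 and 0.0605). Each also lost its call in 5 of the 6 fits that left out a library, with adjusted p up to 0.126 for HIST1H4K, which held only without siRPS19 replicate 1, and up to 0.16 for HIST4H4, which held only without siRPS19 replicate 2. HIST1H4J (8, 10 and 3 counts against 13, 11 and 12) and HIST1H4I (8, 8 and 11 against 15, 8 and 22) had overlapping groups and adjusted p of 0.263 and 0.285.

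**Figure D2:**
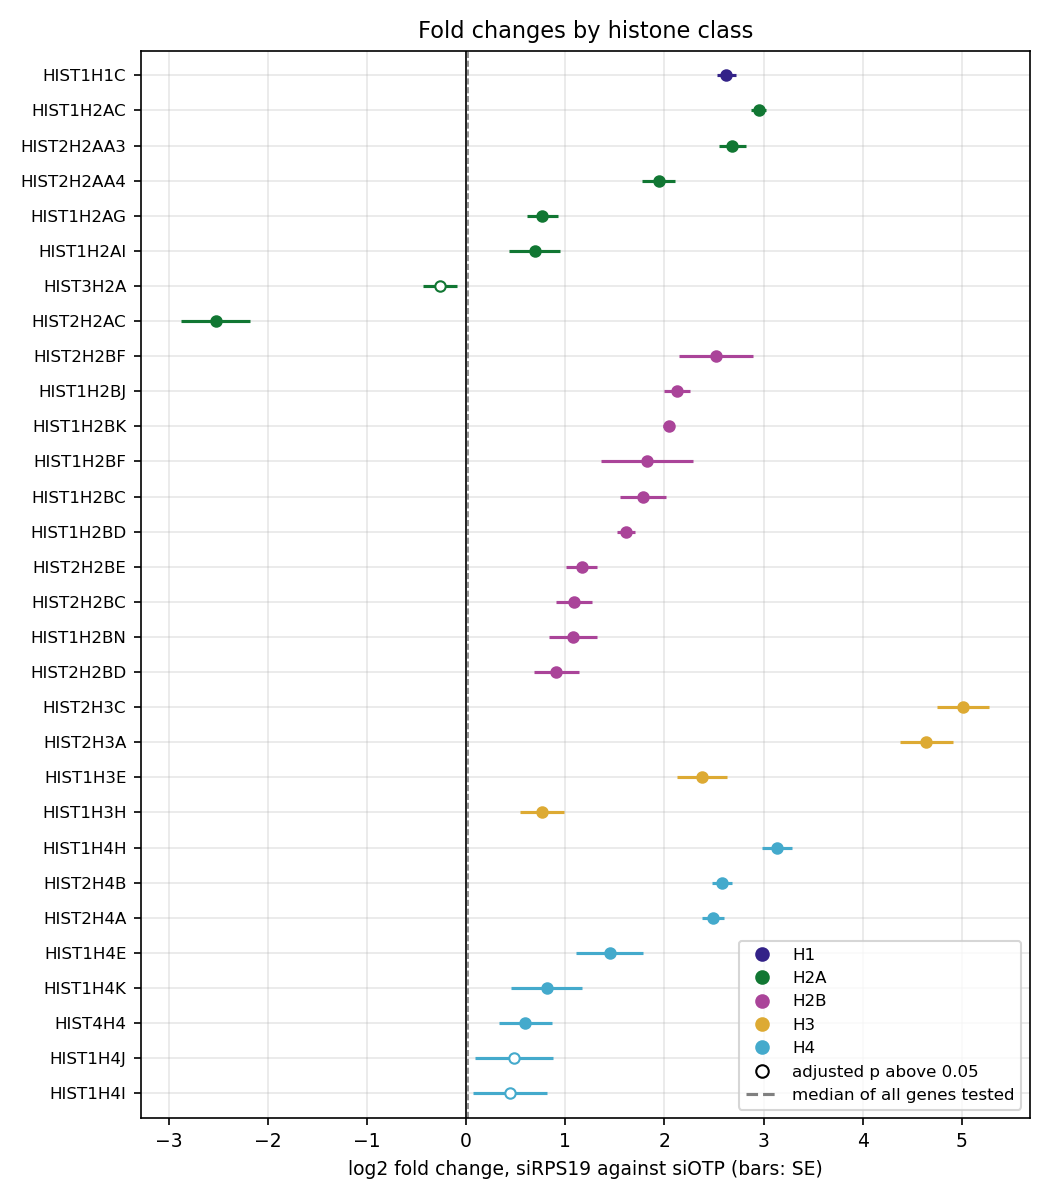
Points give the log2 fold change of each tested gene, siRPS19 against siOTP, coloured by histone class, with bars for the standard error and open points for an adjusted p above 0.05. The dashed line is the median of all genes tested (0.02). The H3 copies HIST2H3C and HIST2H3A lie farthest to the right, and HIST2H2AC is alone far to the left of 0.

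Levels can be set beside each other only per length, here as CPM per kb of the transcript length in the authors' table. After siRPS19, HIST1H2BK was highest at 105 ± 6.22 CPM per kb. HIST1H2AC (54.9 ± 3.67) and HIST1H1C (53.3 ± 3.89) followed and differed by less than their spread, and HIST1H2BD came next at 24.7 ± 1.81. HIST2H4B, HIST2H4A and HIST1H2BJ, at 12.5 ± 0.856, 12.3 ± 1.09 and 12.2 ± 0.366, could not be separated. In siOTP the genes after HIST1H2BK (25.5 ± 1.34) were HIST1H1C at 8.64 ± 1.51, HIST1H2BD at 8.10 ± 0.669 and HIST1H2AC at 7.11 ± 0.893. The ranges of these 3 genes over the libraries overlapped, with HIST1H2AC the lowest of them in each library. HIST3H2A had rank 5 of 30 in siOTP, at 5.91 ± 0.781 CPM per kb, and rank 14 in siRPS19, at 4.93 ± 0.731.

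All 5 classes were higher in sum. The summed level went from 6.73 ± 1.20 to 39.4 ± 2.97 CPM for H1, from 22.9 ± 2.14 to 117 ± 6.85 for H2A, from 40.2 ± 1.59 to 142 ± 8.85 for H2B, from 3.31 ± 0.37 to 19.3 ± 2.63 for H3 and from 11.9 ± 1.16 to 61.4 ± 5.20 for H4 (SD, n = 3 each). The ratios ran from 3.53 for H2B to 5.85 for H1. An exact two-sided permutation test of 3 libraries against 3 cannot go below 0.1, so these sums carry no test. As a share of the clusters' summed CPM per kb, H1 was 8.71% to 10.6% in siOTP and 14.4% to 15.1% in siRPS19. H2B was 48.5% to 50.4% and 44.4% to 44.9%. H3 was 6.12% to 6.99% and 5.31% to 5.82%. H1 was above and H2B and H3 below in siRPS19 without overlap, whereas H2A (23.5% to 25.7% and 23.4% to 24.5%) and H4 (8.98% to 10.7% and 10.5% to 11.3%) overlapped. For some classes this depended on the division by length. The ratio of mean sums for H3 was 5.84 in CPM but 3.32 in CPM per kb, against 4.46 and 3.84 over all cluster genes. It was 5.12 and 3.73 for H2A, and 5.16 and 4.32 for H4. For H1 (5.85 and 5.72) and H2B (3.53 and 3.49) it changed little.

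The 59 genes below the filter are described apart. A low gene that was higher in siRPS19 could pass the filter and leave this set, so their values are not a comparison with the tested genes. Of the 59, 47 had a count, none had more than 17 in a library, and together they had 72, 58 and 73 counts in siOTP and 80, 80 and 73 in siRPS19. Their summed level was 3.38 ± 0.417 CPM in siOTP and 3.18 ± 0.244 in siRPS19 (SD, n = 3), which overlapped. Untested H4 genes had 12, 5 and 7 counts in siOTP and 1, 4 and 1 in siRPS19, so the libraries of that class were apart with siRPS19 below. Counts this small are few molecules, and no test was made of the sum.

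Some named genes show both directions among these low genes. HIST1H3B, a typical S phase H3 gene, had 8, 5 and 6 counts in siOTP and 0, 1 and 2 in siRPS19, and HIST1H2BO had 6, 4 and 8 against 2, 4 and 0. HIST1H4D (1, 3 and 3) and HIST1H4A (3, 1 and 1) had 0 counts in all siRPS19 libraries. In the fit to every gene with a count, these 4 and HIST1H3C were called lower, with adjusted p of 0.000671, 0.0153, 0.0112, 0.0421 and 0.0295 for HIST1H3B, HIST1H2BO, HIST1H4D, HIST1H4A and HIST1H3C. HIST1H3C (4, 4 and 4 against 0, 1 and 2) was named after its values were seen. HIST1H3G went the other way, with 1, 3 and 0 counts against 8, 17 and 9 (adjusted p = 0.000125). HIST1H2AK, with 1, 5 and 6 against 16, 9 and 8, and HIST1H2AJ, with 0, 5 and 5 against 3, 6 and 2, did not pass. Nor did HIST1H4C, the most counted untested H4 gene, with 3, 0 and 2 against 1, 2 and 1 (adjusted p = 0.658 in the same fit).

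**Figure D3:**
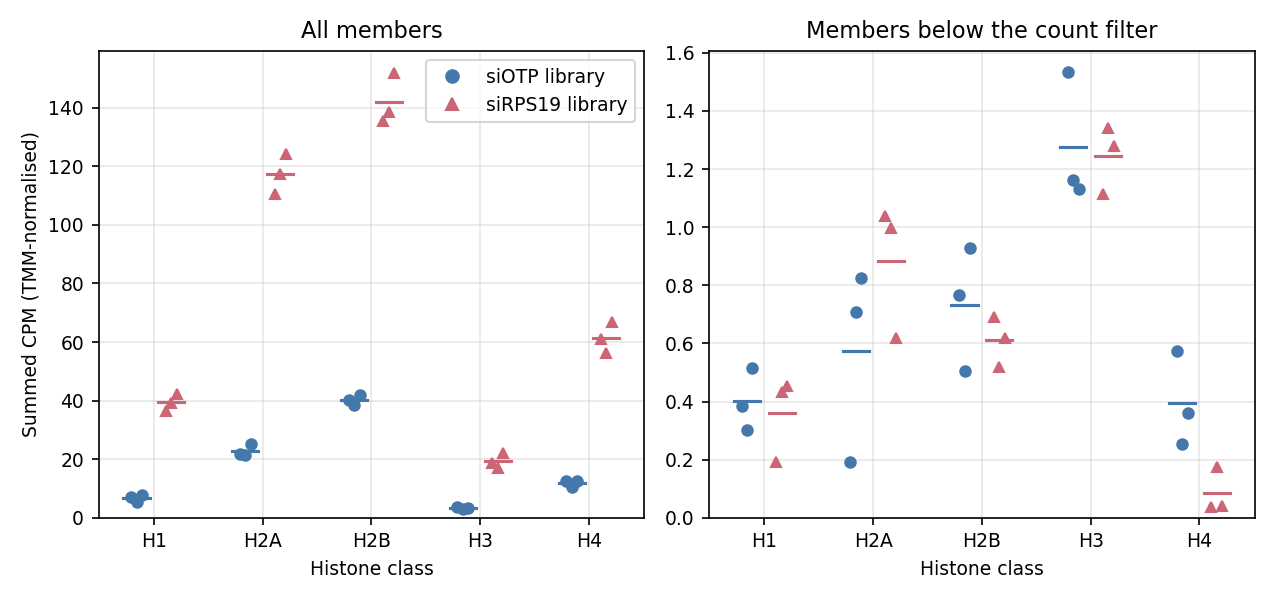
The vertical axes give summed CPM per library for each histone class on the horizontal axis, with circles for siOTP, triangles for siRPS19 and a bar for each mean. On the left, over all 89 genes, the siRPS19 libraries lie above the siOTP libraries in every class. On the right, over the 59 genes below the filter, the groups overlap in H1, H2A, H2B and H3, and siRPS19 is lower in H4.

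The annotated form of the transcript differed between tested and untested genes. Among the 25 genes annotated at least 100 bases past the stem-loop, 20 were tested, and 18 rose, none fell and 2 did not pass (HIST3H2A and HIST1H4I). Among the 10 whose transcript ended within 100 bases of it, 5 were tested, and 4 rose and 1 did not pass. Of the 54 with no stem-loop in the annotated transcripts, 5 were tested: HIST1H1C, HIST1H2BJ, HIST1H2BK and HIST1H4K rose and HIST2H2AC fell. Transcript length in the authors' table moved with this grouping, with medians of 1195 bases past the stem-loop, 527.5 near it and 441.5 without one, and its part in which genes were tested was not tested. Over all genes tested, 39.5% were called higher. Of the 18, HIST1H2BC, HIST1H2BF, HIST2H2BF, HIST1H3E, HIST2H3A, HIST2H3C and HIST1H4E reached the filter level in all siRPS19 but not all siOTP libraries. The same held for HIST1H4K, so these counts are partly set by the filter.

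Apparent exceptions ran in both directions. HIST1H2BE, HIST1H2BG, HIST1H2BH and HIST3H2BB were annotated far past the stem-loop yet had 5 or fewer counts in each group or, for HIST3H2BB, 8 in each. They were chosen for this contrast after their values were seen. Their lengths in the authors' table are 497, 445, 425 and 452 bases, against longest GENCODE 29 transcripts of 2585, 1534, 2060 and 2364. Reads from their longer forms were therefore not all counted on them, and their low counts do not measure those forms. HIST1H3G, also untested and annotated 1518 bases past the stem-loop, had 4 counts in siOTP and 34 in siRPS19. Its lengths are 467 bases in the authors' table and 2411 in GENCODE 29. HIST2H2AA3 and HIST2H2AA4, annotated 35 bases past the stem-loop, rose, but the authors' table gives HIST2H2AA3 a length of 974 bases, longer than its GENCODE 29 transcript. The gene models used for counting were older: HIST1H3E, annotated 1862 bases past the stem-loop in GENCODE 29 with a longest transcript of 2679 bases, has a length of 462 in the authors' table, so reads from the longer form were not all counted on it.

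**Figure D4:**
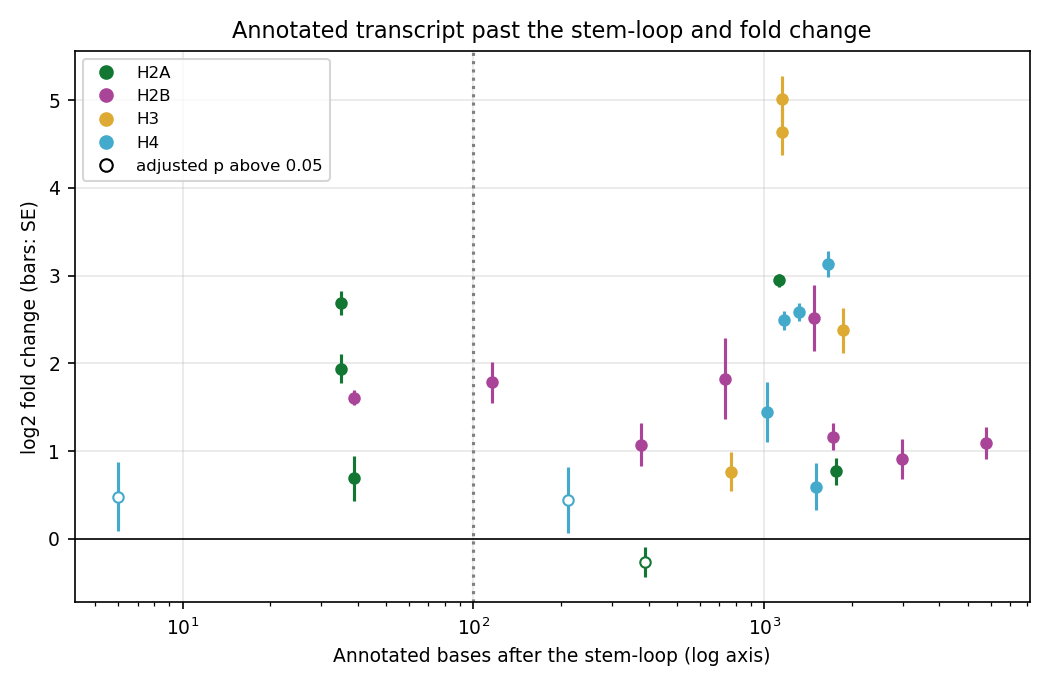
Each point is a tested gene with a stem-loop in its annotated transcripts, with the number of annotated bases after the stem-loop on a log axis and the log2 fold change (bars, SE) on the vertical axis. The dotted line marks 100 bases, and open points have an adjusted p above 0.05. Genes that rose lie on both sides of the line, and HIST2H3C and HIST2H3A, at 1154 bases, are highest.

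Many H2A and H2B genes stand head to head around a shared promoter. In the authors' coordinates, 19 pairs of cluster genes were divergent with 130 to 855 bases between them, 17 of them an H2A with an H2B gene, and both genes were tested in 5. Both rose in 4 of these 5, where 39.5% of all genes tested were called higher. Both genes had to pass the filter, and HIST1H2BC reached its level in every siRPS19 library but not in every siOTP library. HIST1H2BC and HIST1H2AC, 219 bases apart, had log2 fold changes of 1.79 ± 0.23 and 2.95 ± 0.07 (SE). HIST1H2BJ and HIST1H2AG, 291 bases apart, had 2.12 ± 0.13 and 0.77 ± 0.15. HIST2H2AA3 and HIST2H2BD (130 bases) had 2.69 ± 0.14 and 0.91 ± 0.23, and HIST2H2BC and HIST2H2AA4 (304 bases) had 1.09 ± 0.18 and 1.94 ± 0.16. Within each of these pairs the sizes differed by more than the standard errors, with the H2A gene larger in 3 and the H2B gene in 1. The HIST2 pairs among them are not independent observations. Of their 50-base windows, 0% were unique to HIST2H2AA3 and 2.91% to HIST2H2AA4. HIST2H2BD and HIST2H2BC shared 71.0% and 39.6% of theirs with other cluster genes, so reads could be divided between the pairs.

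In the remaining pair the genes went opposite ways. HIST2H2BE and HIST2H2AC start 293 bases apart on chromosome 1. HIST2H2BE had 66, 62 and 48 counts in siOTP and 185, 123 and 175 in siRPS19 (log2 1.16 ± 0.15 SE, adjusted p = 7.89e-07), while HIST2H2AC had 22, 23 and 18 against 5, 4 and 4. The annotated HIST2H2BE transcript runs 1729 bases past its stem-loop. For HIST2H2AC the annotated transcript is 390 bases long, shorter than the 437 bases in the authors' table. No stem-loop was found within those 390 bases, which does not show that the gene lacks one, so the pair cannot be compared in this respect. In the other pairs with a single tested gene the partner had at most 45 counts over the 6 libraries: beside HIST1H2BK, with 7569, HIST1H2AH had 6.

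**Figure D5:**
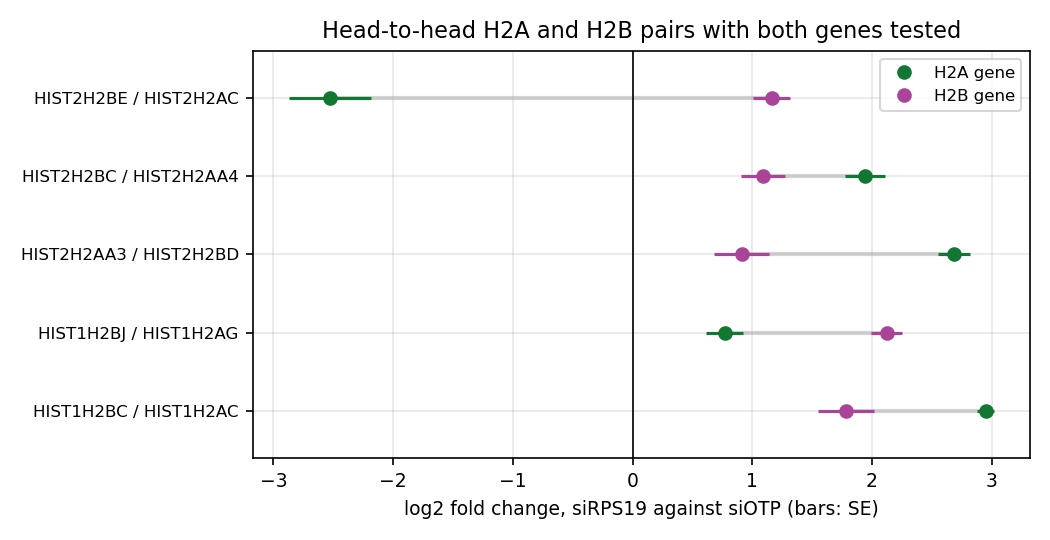
Rows are the 5 head-to-head pairs with both genes tested, and points give each gene's log2 fold change with its standard error, green for H2A and purple for H2B, joined by a grey line. Both points lie to the right of 0 in 4 pairs, and HIST2H2AC lies to the left of 0 opposite HIST2H2BE.

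The 250 bases upstream of the RefSeq start were available for 62 of the 89 genes (GRCh38.p14) and were searched on both strands for TATAAA, for CCAAT (bound by NF-Y), for ATTTGCAT (the octamer bound by POU2F1) and for AAACACA (an element of H1 promoters). No 2 of these motifs contain each other. TATAAA was in 66.1% of the 62 promoters and in 10.7% of all 35116 promoters of the same length. CCAAT was in all promoters of the H1, H2A, H2B and H3 genes but in 3 of 13 H4 promoters, against 32.0% of all promoters. The octamer was in 11 of 16 H2A and 13 of 16 H2B promoters, in none of the others and in 1.63% of all promoters, and AAACACA was in all 6 H1 promoters, in no other cluster promoter and in 4.82% of all promoters.

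The promoters that follow have these motifs on either strand in capitals. They are the upstream windows of HIST1H1C (minus strand, chr6:26056471-26056720), HIST1H2AC (plus strand, chr6:26123922-26124171), HIST2H2AC (plus strand, chr1:149886668-149886917) and HIST2H3C (minus strand, chr1:149841209-149841458). The first 2 are shown for an H1 and an H2A gene that rose, the third because it also lies upstream of HIST2H2BE on the other strand, and the last for the H3 gene with the highest fold change.
HIST1H1C: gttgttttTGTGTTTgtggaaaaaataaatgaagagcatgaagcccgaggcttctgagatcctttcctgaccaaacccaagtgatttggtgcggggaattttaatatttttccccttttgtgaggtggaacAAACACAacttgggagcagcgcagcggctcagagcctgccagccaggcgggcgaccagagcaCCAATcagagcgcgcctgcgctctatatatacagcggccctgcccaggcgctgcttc
HIST1H2AC: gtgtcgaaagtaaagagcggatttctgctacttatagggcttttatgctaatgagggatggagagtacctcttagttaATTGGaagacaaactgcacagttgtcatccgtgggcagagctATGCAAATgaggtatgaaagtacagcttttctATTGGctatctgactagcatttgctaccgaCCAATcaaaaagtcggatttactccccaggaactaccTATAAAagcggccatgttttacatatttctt
HIST2H2AC: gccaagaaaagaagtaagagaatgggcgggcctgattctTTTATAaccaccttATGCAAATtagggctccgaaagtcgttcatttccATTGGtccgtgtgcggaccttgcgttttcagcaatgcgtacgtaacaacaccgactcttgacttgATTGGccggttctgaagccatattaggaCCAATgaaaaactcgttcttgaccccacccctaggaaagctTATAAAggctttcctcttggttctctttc
HIST2H3C: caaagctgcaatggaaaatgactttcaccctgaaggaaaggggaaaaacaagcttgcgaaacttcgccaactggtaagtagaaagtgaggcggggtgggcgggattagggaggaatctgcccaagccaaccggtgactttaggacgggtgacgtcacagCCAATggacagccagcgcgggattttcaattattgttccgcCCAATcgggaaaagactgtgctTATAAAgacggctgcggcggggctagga
The HIST1H2AC and HIST2H2AC windows both hold TATAAA, the CCAAT box and the octamer, and the genes moved in opposite directions. Of 21 promoters of genes called higher, 13 (61.9%) had TATAAA, 15 (71.4%) CCAAT and 7 (33.3%) the octamer. Among 37 promoters of untested genes the shares were 70.3%, 91.9% and 43.2%. In both sets every promoter without CCAAT was that of an H4 gene, so the CCAAT shares follow the mix of classes.

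The genes that act on histone transcripts were read from 5 lists, against 38.9% lower and 39.5% higher among all genes tested. In the list of transcription and 3′ end processing factors, 15 of 20 tested genes fell, 2 rose and 3 did not pass, with a median log2 fold change of -0.72. SLBP, which binds the stem-loop, had 2011, 1945 and 1975 counts in siOTP and 663, 666 and 574 in siRPS19, and fell 3.80-fold. NPAT, the cyclin E-CDK2 substrate that activates histone transcription, had 494, 472 and 407 against 373, 353 and 341 counts and fell 1.57-fold. The E2F1 transcription factor fell 33.3-fold, the kinase CDK2 6.48-fold and CPSF2, a subunit of the cleavage complex, 2.38-fold. LSM11, of the U7 particle, rose 1.29-fold and the H4 promoter factor HINFP 1.42-fold; these 2 were named after their values were seen, as were all list genes called higher below.

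Factors of histone mRNA translation and decay fell in 10 of 17, rose in 2 (ZCCHC6, 1.13-fold, and PNRC2, 1.34-fold) and did not pass in 5, with a median of -0.36, where 38.9% of all genes fell. By library totals, 8 of the 17 were lower and 8 higher. Those with the smallest p were ERI1, the exonuclease that trims the stem-loop (2.77-fold), LSM3 (2.36-fold), LSM5 (2.19-fold) and the exosome subunit EXOSC10 (1.85-fold). Replication-independent histone genes, whose mRNAs are polyadenylated, fell in 9 of 12 and rose in none. Among them the centromeric histone CENPA fell 53.4-fold, H2AFX 11.3-fold, H2AFZ 7.28-fold and the linker histone H1F0 2.34-fold. H2AFX is a partial exception to the list's name, since it is known to make both stem-loop and polyadenylated mRNA.

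Histone chaperones fell in 16 of 18, with a median of -1.52, and rose in ASF1A (1.14-fold) and ATRX (1.11-fold). ASF1B fell 44.9-fold, CHAF1A, of the assembly factor that acts behind the replication fork, 14.0-fold, HJURP 10.0-fold and ANP32E 7.08-fold. All 14 S phase genes fell, with a median of -3.48 and a summed level of 3373 to 3435 CPM in siOTP and 716 to 773 CPM in siRPS19. MCM6 fell 13.7-fold, MCM2 11.9-fold and MCM4 10.9-fold, all of the replicative helicase, and UHRF1 20.1-fold. These lower levels accompanied the higher levels of the 26 histone cluster genes, and their part in that result was not tested. In bulk RNA, fewer cells of a kind and less RNA per cell cannot be told apart.

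Scaling changed some of these list calls. With library totals, the median of all genes moved from 0.02 to 0.31, and 6 transcription and processing factors, 8 translation and decay factors, 3 replication-independent histone genes and 1 S phase gene (PCNA) were called higher. CSTF2T, DIS3L2, H2AFY2 and PCNA were the 4 that changed from lower to higher. Without siRPS19 replicate 3 the number of chaperones called higher stayed at 2, and without any of the other 5 libraries it was 1, as ASF1A no longer passed.

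Read length limits which gene a read can be given to. Among the 30 tested genes, a median of 90.9% of the 50-base windows of the GENCODE 29 transcripts were unique to the gene, but for 8 the share was under 20%: the HIST2H2AA, HIST2H3 and HIST2H4 copies, HIST1H4K and HIST1H4J. For HIST1H2BK it was 25.9%. In the authors' coordinates 8 of the 30 overlap another gene. HIST1H4I lies within HIST1H2BK on the opposite strand over 1343 bases, and HIST2H3A and HIST2H3C overlap HIST2H4B and HIST2H4A by 230 bases each. Neither strand marking nor poly(A) selection is mentioned for the kit, so it is not known whether reads of opposite-strand pairs were kept apart, and the tail of a transcript is not measured.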

How the data were processed

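Total RNA of 6 A549 samples was sequenced with a standard Illumina TruSeq kit. TopHat2 2.0.8b, HTSeq, DESeq and R 3.0.2 are named, with hg19, per the submitters' processing notes. The authors deposited whole-number read counts per Ensembl gene for each library, which were used for every test. Their deposited RPKM table gives 1 value per group; it equalled the mean count plus a pseudocount of 1, per transcript length and group total, for 100% of genes, and served for names, positions and lengths. The members and gene lists were chosen with earlier results of these data known.

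Entries that name no gene were left out (reads outside genes 3.39% to 6.36%, ambiguous 7.50% to 8.24%). filterByExpr (minimum count 10, total 15) kept 17171 genes. Groups were compared with edgeR 4.0.16 in R 4.3.3 (TMM, robust quasi-likelihood test, Benjamini-Hochberg over all genes, threshold 0.05), which gives the adjusted p-values unless another fit is named. The test was first checked on simulated data. CPM are TMM-normalised, and ± on fold changes is the standard error. Counts of 3 libraries per group measure the spread between these samples only, and precision is low for genes with few counts.

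Between replicates, chi-square per degree of freedom was 4.40 to 16.6, above sampling noise for every pair. The sample descriptions give same-numbered replicates of both groups the same date, which pairs them; their deviations correlated across genes at 0.092, -0.12 and 0.07. The main fit had no block. Alternatives were the block, 3 scalings, 2 filters, DESeq2 1.42.0, limma-voom (limma 3.58.1), the sums without their most counted gene and leaving out each library.

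Named genes are RPS19, any tested member, SLBP, NPAT and up to 4 genes per list with the smallest p. An untested member was named if among the 3 most counted of its class, overlapping a tested gene or sharing a promoter with a tested member. Stem-loops and 50-base windows come from GENCODE 29 transcripts matched by symbol (89 of 89), and promoters from RefSeq (GRCh38.p14). Protein sequences were not used here.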

Additional observations from a re-analysis of the deposited data

How the results depend on the processing

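The count of histone cluster genes called higher ranged from 22 to 26 over the alternatives, and that of genes called lower was 1 except with every gene with a count (6) and with a mean of at least 1 CPM (0). Leaving out each library gave 23 to 25 higher and 1 lower. The block fit gave 24 higher and 1 lower, and changed no other call among these genes than those of HIST1H4K and HIST4H4. The median log2 fold change was 1.98 by library totals, 0.76 with every gene with a count and 1.99 with a mean of at least 1 CPM. For the summed level per kb, the log2 ratio was 2.23 by library totals. By class, the median with every gene with a count was 0.23 in H1, 0.57 in H3 and 0.41 in H4, and with a mean of at least 1 CPM it was 1.40 in H2A and 2.59 in H4. With every gene with a count, lower calls numbered 1 in H2B, 2 in H3 and 2 in H4. With a mean of at least 1 CPM, those in H2A numbered 0. Of 413 fold changes of the 30 genes under alternatives, 391 kept their direction and side of the threshold, 21 lost the call (HIST1H2AI, HIST1H4K and HIST4H4) and 1 turned sign (HIST3H2A, 0.023 by library totals). Without HIST1H1C the log2 ratio of the H1 sum of CPM per kb turned to -0.092.

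Among the lists, upper-quartile factors gave 7 translation and decay genes and 2 replication-independent histone genes higher. Library totals gave 6 transcription and processing, 8 translation and decay, 3 replication-independent and 1 S phase gene higher. With every gene with a count, 1 translation and decay gene and 0 chaperones were higher. DESeq2 gave 1 chaperone higher, and leaving out each library 1 to 2. Library totals leave out the factors that scaling adds, and the cause of the other shifts was not tested. Depth limits the 59 untested genes, none with more than 17 counts in a library.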
